A study of Homo sapiens with 2 samples.

Results

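The SLC25 genes encode the mitochondrial carrier family, transporters of the inner mitochondrial membrane that move nucleotides, phosphate, amino acids, carboxylates, cofactors and metals between the cytosol and the matrix. A few relatives act elsewhere, in the peroxisome or the outer mitochondrial membrane. Here the family was taken as every probe set whose single gene symbol was SLC25A followed by a number, which gave 44 probe sets of 21448 on the array, 1 for each of 44 genes. SLC25A3, SLC25A6 and SLC25A15 were not analysed here.

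The values came from 2 whole-transcript arrays of DLD-1, a human cell line from a colorectal adenocarcinoma. The culture called siYY1 received a single siRNA against YY1, a zinc finger transcription factor, and the other, siControl, received a non-targeting siRNA. Both siRNAs were used at 5 nmol/L with a lipid reagent, and RNA was taken at day 3. The comparison asks which genes differ in level when YY1 is knocked down.

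There was 1 array per group, so the differences compare these arrays, have no replicate error and were not tested. YY1 was not among the named genes, so the knockdown was not checked here and only the labels give the groups. Values were taken as log2 expression from their range, and the pair was quantile normalized. A difference is siYY1 minus siControl in log2 units, so that 1 is 2-fold. In a bulk culture, fewer cells with a transcript and less transcript per cell cannot be told apart. Each probe set has its own response, so values were compared between arrays and not between genes. The background was 8623 protein-coding genes that reached 7.60 on the log2 scale on at least 1 array, which is the median of the brighter value over all protein-coding genes. Of the colorectal epithelial markers, 9 of 12 named genes reached this minimum, EPCAM among them at 16.5 in siYY1 and 16.3 in siControl. The same minimum was reached by 1 of 8 fibroblast, 0 of 6 endothelial and 2 of 6 leukocyte markers.

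Most carriers lay close to the same level on both arrays, and few differences were large. Of the 44 genes, 33 reached the brightness minimum. At least 2-fold lower in siYY1 were 2 of these 33 (6.06%), where 9.27% of all genes compared were that much lower. At least 2-fold higher was 1 (3.03%), where 7.97% of all genes compared were that much higher. This 1 carrier, SLC25A27, reached the brightness minimum only on the siYY1 array, where it was higher. Past 2-fold either way were 9.09% of the carriers, against 17.2% of all genes compared, and 66.7% of the carriers lay within 0.5 of 0, against 52.2%. At 1.5-fold 8 carriers were lower and 3 higher, where 21.8% and 19.5% of all genes compared were. At 3-fold SLC25A12 was lower and no carrier was higher, where 2.41% and 1.9% of all genes compared were. The median difference of the 33 was -0.16, with 17 below 0 (50.4% of all genes compared were below 0) and 16 above, and the median of all genes compared was -0.01. In the values as deposited both medians moved down together, to -0.29 for the carriers and -0.13 for all genes compared. The count of carriers below 0 also moved, to 22 of 33 as deposited, where 56.8% of all genes compared were below 0. It was 24 of 32 with median centring (61.5% of all genes compared) and 20 of 33 with loess on brightness (51.3%). The deposited values had 3 carriers at least 2-fold lower and 1 higher, beside 12.2% and 6.15% of all genes compared. Median centring had 4 lower and 1 higher of 32 carriers, beside 14.2% and 5.04%.

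**Figure D1:**
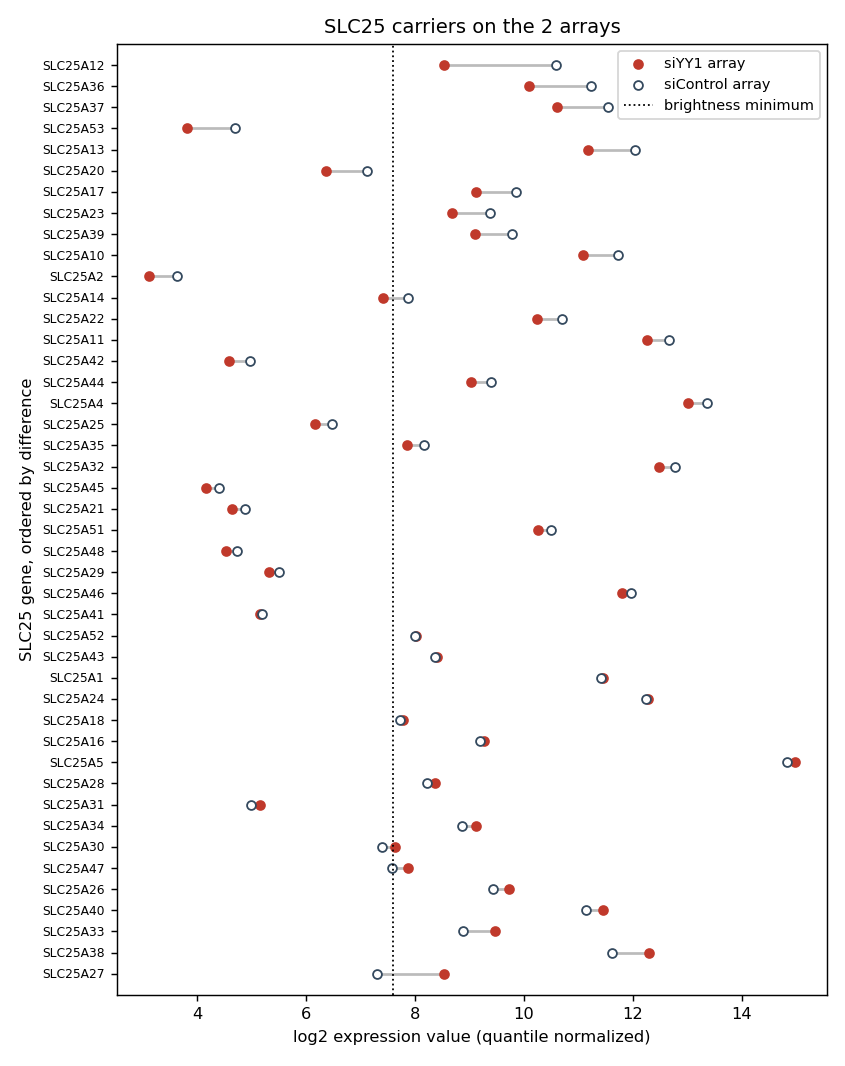
Log2 expression values (x axis, quantile normalized) of the 44 SLC25 genes (y axis, ordered by difference) on the siYY1 array (filled red) and the siControl array (open), 1 array each; the dotted line is the brightness minimum of 7.60. SLC25A12 has the longest bar to the left, 8.54 in siYY1 against 10.6 in siControl, and SLC25A27 the longest to the right, 8.53 against 7.31.

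**Figure D2:**
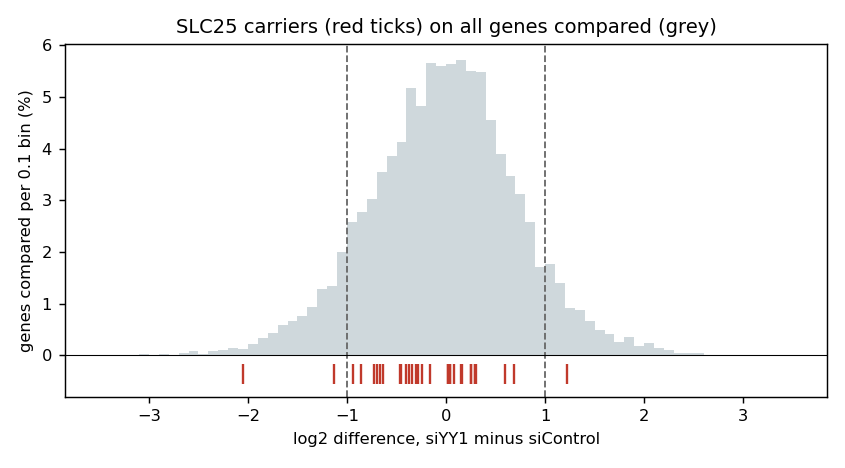
Differences in log2 units (x axis, siYY1 minus siControl) of the 33 SLC25 genes compared (red ticks) under the distribution of all 8623 genes compared (grey bars, percent of genes per 0.1 bin); dashed lines mark 2-fold. The carriers gather around 0, with 2 ticks left of the lower line and 1 right of the upper line.

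The lowest carrier was SLC25A12, known as aralar, one of the calcium-regulated aspartate/glutamate carriers. These carriers export aspartate from the matrix in exchange for glutamate and are a step of the malate-aspartate shuttle, which brings the reducing equivalents of cytosolic NADH into mitochondria. SLC25A12 was at 8.54 in siYY1 and 10.6 in siControl, a difference of -2.05 or a 4.13-fold lower level. Only 0.638% of all genes compared had a lower difference. Its value was above the brightness minimum on both arrays.

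The paralog SLC25A13, known as citrin, carries the same substrates. It was at 11.18 in siYY1 and 12.04 in siControl, a difference of -0.86. It was short of 2-fold here, and past it with median centring (-1.07). Both aspartate/glutamate carriers were thus lower in siYY1, SLC25A12 by 1.19 log2 units more. The glutamate carriers, which move glutamate with a proton, were closer to 0. SLC25A22 was at 10.2 in siYY1 and 10.7 in siControl (-0.46), and SLC25A18 at 7.77 in siYY1 and 7.73 in siControl (0.04). The sign of SLC25A18 changed with the scaling of the arrays. In this group of 4 genes the median was -0.66.

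The second lowest carrier compared was SLC25A36, one of the pair of pyrimidine nucleotide carriers, which supply mitochondria with the pyrimidine nucleotides used for mitochondrial DNA and RNA. It was at 10.1 in siYY1 and 11.2 in siControl, a difference of -1.13 (2.19-fold lower), and 6.76% of all genes compared lay below it. The other carrier of the pair, SLC25A33, was at 9.47 in siYY1 and 8.87 in siControl, a difference of 0.60. The paralogs therefore lay on opposite sides of 0, 1.73 log2 units apart.

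The highest carrier was SLC25A27, also called UCP4, a relative of the uncoupling proteins best known from brain. It was at 8.53 in siYY1 and 7.31 in siControl, a difference of 1.22 (2.33-fold higher), and 95.4% of all genes compared lay below it. Its siControl value was under the brightness minimum, so the size of this difference is uncertain. The other uncoupling-type carriers with SLC25A symbols did not reach 2-fold. SLC25A14 (UCP5) was at 7.42 in siYY1 and 7.88 in siControl (-0.46), and SLC25A30 at 7.64 in siYY1 and 7.38 in siControl (0.25). Both were also under the minimum on one array.

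Members of the carrier family under other symbols were looked at beside them. UCP2, an uncoupling-type carrier of many tissues, was at 8.02 in siYY1 and 7.00 in siControl, a difference of 1.02 that was under 2-fold with median centring (0.95) and with loess (0.97). Its siControl value was under the brightness minimum too. MTCH1 and MTCH2, outer membrane relatives of the carriers, were at 0.47 and 0.18. UCP1 and UCP3 were too dim to compare.

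**Figure D3:**
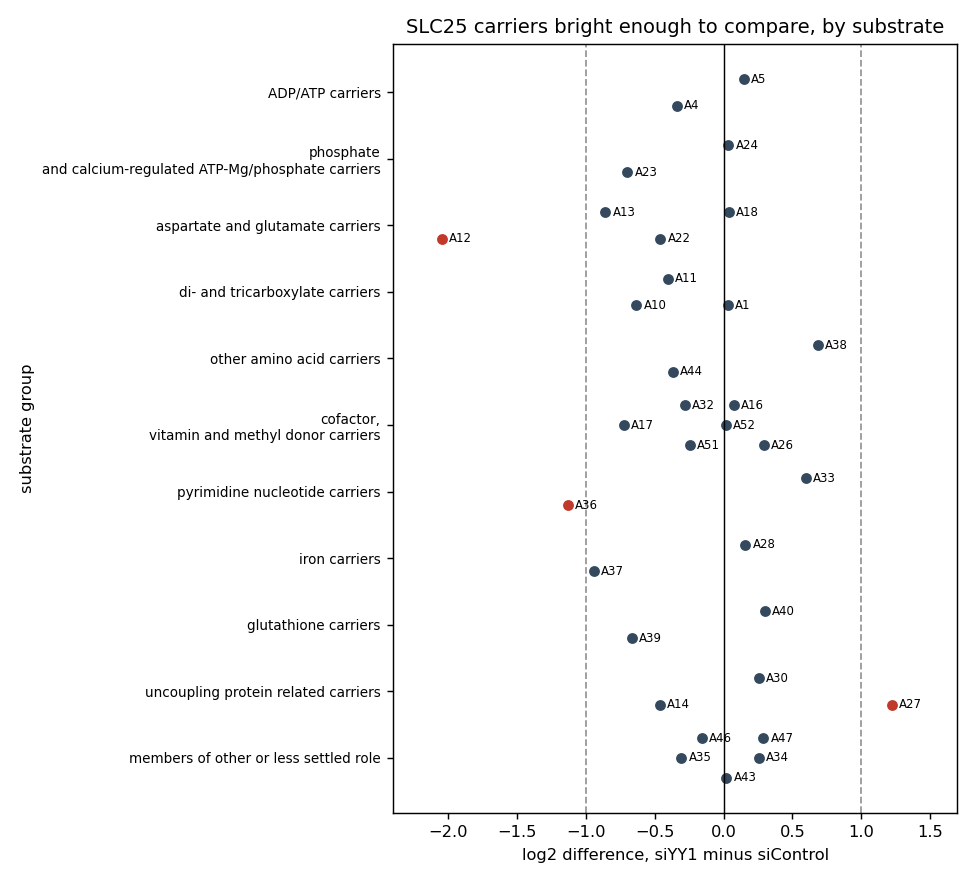
Difference in log2 units (x axis, siYY1 minus siControl) of each of the 33 SLC25 genes compared, 1 point per gene, in rows by the substrate carried (y axis); labels drop the prefix SLC25, red points are past 2-fold and dashed lines mark 2-fold. SLC25A12, SLC25A36 and SLC25A27 are the red points, and most rows with several carriers have points on both sides of 0.

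YY1 recognises a short core, ATGGC, in a longer preferred sequence, AANATGGC, and the promoters of the carriers were searched for both on either strand. The windows were the 250 bases before and 50 after each RefSeq gene start on GRCh38.p14, found for 37 of the 44 genes. The core is part of the longer sequence, so each match of the longer one is also a match of the core. No binding was measured on these arrays, and a match describes letters only. The matches shown are those of the 3 carriers past 2-fold and of the single carrier with the longer sequence. Capitals mark the match, GCCAT being the core read on the opposite strand.
SLC25A12: cgagcacagcATGGCggtcaaggtg
SLC25A36: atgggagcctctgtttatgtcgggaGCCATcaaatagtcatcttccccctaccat
SLC25A27: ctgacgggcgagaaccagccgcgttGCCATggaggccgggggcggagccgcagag
SLC25A44: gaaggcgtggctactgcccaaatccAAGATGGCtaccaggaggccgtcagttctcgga

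Each is written along the gene's own strand. The SLC25A12 window is chr2:171894200-171894224 on the minus strand, with its match beginning 30 bases after the annotated start. The SLC25A36 window is chr3:140941741-140941795 on the plus strand, with the match 70 bases before the start. That of SLC25A27 is chr6:46652844-46652898 on the plus strand, 106 bases before the start. The SLC25A44 window is chr1:156193920-156193977 on the plus strand, 159 bases before the start.

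The longer sequence was found in the promoter of 1 of 28 carriers compared that had a window (3.57%), against 11.8% of 7298 genes compared and 6.82% of all 27305 promoters in the table. That carrier, SLC25A44, was at 9.02 in siYY1 and 9.39 in siControl, a difference of -0.37. The core was found in 9 of the 28 carriers (32.1%), against 38.9% of the genes compared and 38.4% of all promoters. With quantile normalization all 3 carriers past 2-fold had the core, and none of the 19 without it was past 2-fold. This split depended on the scaling: with median centring SLC25A13, whose window had no core, was past 2-fold (-1.07). SLC25A37, past 2-fold there and in the values as deposited, had no window. Of the 3 carriers with the core and past 2-fold, SLC25A12 had its match after the gene start and not before it. SLC25A27 reached the brightness minimum only on the siYY1 array, where it was higher. Over all genes compared the shares past 2-fold were 16.7% with the core and 17.6% without it. By direction, 10.3% with the core and 9.17% without it were at least 2-fold lower, and 6.38% and 8.41% at least 2-fold higher. No test was made of these shares. The 9 carriers with the core had a median of 0.02, from -2.05 for SLC25A12 to 1.22 for SLC25A27.

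Carriers of adenine nucleotides and phosphate link the matrix ATP supply to the cytosol. SLC25A5 (ANT2), the ADP/ATP exchanger of dividing cells, was at 15.0 in siYY1 and 14.8 in siControl, a difference of 0.15 that was -0.06 with median centring. SLC25A4 (ANT1), the exchanger of heart and muscle, was at 13.02 in siYY1 and 13.36 in siControl (-0.34). SLC25A4 and SLC25A5 are close in sequence, and copies that share sequence can share probe signal, so their values are uncertain as single genes. Of the calcium-regulated carriers that exchange ATP-Mg for phosphate, SLC25A23 was at 8.67 in siYY1 and 9.37 in siControl, a difference of -0.70. SLC25A24 was at 12.3 in siYY1 and 12.2 in siControl, a difference of 0.03 whose sign changed with the scaling. SLC25A25 and SLC25A41 of the same type were too dim to compare. None of these carriers reached 2-fold.

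The carboxylate carriers feed the tricarboxylic acid cycle and cytosolic lipid synthesis. SLC25A10, which exchanges dicarboxylates such as malate and succinate for phosphate, was at 11.1 in siYY1 and 11.7 in siControl (-0.63). SLC25A11, the oxoglutarate/malate exchanger and the other membrane step of the malate-aspartate shuttle, was at 12.2 in siYY1 and 12.7 in siControl (-0.40). SLC25A1, which exports citrate for cytosolic acetyl-CoA, was at 11.4 on both arrays, a difference of 0.03 that became -0.20 with median centring. SLC25A10 and SLC25A11 stayed below 0 in each of the 4 scalings.

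Enzymes that work on the same substrates were read from a list of 26 genes, of which 21 were compared. Lower by 2-fold or more was 1 of the 21 and higher 0, beside 9.27% and 7.97% of all genes compared. This gene was ARG2, the mitochondrial arginase, at 6.64 in siYY1 and 7.88 in siControl (-1.24), with its siYY1 value under the brightness minimum. In each of the other scalings 2 were lower: IDH1, a cytosolic isocitrate dehydrogenase at -0.91, was the other one as deposited (-1.06) and with median centring (-1.13), and PCK2, a mitochondrial enzyme too dim to compare otherwise, the other one with loess (-1.19). The median of the list was -0.18. Of the enzymes of the malate-aspartate shuttle, GOT1 was at 0.19, GOT2 at -0.47, MDH1 at -0.23 and MDH2 at 0.22. ACLY, which splits exported citrate, was at -0.11.

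The amino acid carriers compared lay on both sides of 0. SLC25A38, which imports glycine for the first step of heme synthesis, was at 12.3 in siYY1 and 11.6 in siControl. Its difference of 0.69 was the second highest among the genes with SLC25A symbols. SLC25A44, a carrier of branched-chain amino acids, was the other one compared. The iron carriers, mitoferrins, serve heme and iron-sulfur cluster synthesis. SLC25A37 (mitoferrin 1) was at 10.6 in siYY1 and 11.5 in siControl, a difference of -0.94. It lay just inside 2-fold, and past it with median centring (-1.15) and in the values as deposited (-1.08). SLC25A28 (mitoferrin 2) was at 8.37 in siYY1 and 8.21 in siControl (0.16). ALAS1, the enzyme that joins glycine to succinyl-CoA at the start of heme synthesis, was at 0.34.

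SLC25A39 and SLC25A40 are a pair of carriers tied to the import of glutathione, the main mitochondrial thiol antioxidant. SLC25A39 was at 9.10 in siYY1 and 9.77 in siControl (-0.67), and SLC25A40 at 11.4 in siYY1 and 11.1 in siControl (0.30). They were 0.97 log2 units apart.

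Carriers of cofactors and methyl donors stayed under 2-fold. The lowest was SLC25A17, a peroxisomal carrier of CoA and related nucleotides, at 9.12 in siYY1 and 9.85 in siControl (-0.73). SLC25A32, which carries folate and flavin into mitochondria, was at 12.5 in siYY1 and 12.8 in siControl (-0.28). SLC25A26, the importer of S-adenosylmethionine, was at 9.73 in siYY1 and 9.44 in siControl (0.29). SLC25A51, the importer of NAD, was at 10.3 in siYY1 and 10.5 in siControl (-0.24), and SLC25A52, its close copy, at 8.01 in siYY1 and 7.99 in siControl (0.02). The last 2 can share probe signal. SLC25A16, linked to CoA in mitochondria, was at 9.26 in siYY1 and 9.19 in siControl (0.08), and its sign and that of SLC25A52 changed with the scaling.

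The carriers of other or less settled role ranged from -0.31 to 0.29. SLC25A46, an outer membrane protein that acts in mitochondrial shape and lipid traffic, was at 11.80 in siYY1 and 11.96 in siControl (-0.16). SLC25A35 was at 7.86 in siYY1 and 8.16 in siControl (-0.31). SLC25A34 was at 9.12 in siYY1 and 8.87 in siControl (0.25), SLC25A47 at 7.87 in siYY1 and 7.58 in siControl (0.29), and SLC25A43 at 8.40 in siYY1 and 8.38 in siControl (0.02). The siControl value of SLC25A47 was just under the brightness minimum. The sign of SLC25A43 changed with the scaling.

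The 11 carriers too dim to compare included SLC25A31, the ADP/ATP exchanger of the male germ line. Their differences ran from -0.87 for SLC25A53 to 0.16 for SLC25A31, and none was past 2-fold. Among 8622 dim protein-coding genes 3.33% were. With quantile normalization 10 of the 11 were below 0, where 50.3% of all genes without a brightness filter were. Each of these differences was higher in the values as deposited, and that of SLC25A41 went from -0.05 to 0.11. SLC25A20, the carnitine/acylcarnitine carrier that brings long-chain fatty acids to oxidation, was at 6.36 in siYY1 and 7.12 in siControl (-0.76). Its partners in that shuttle were bright enough to compare, CPT1A at 0.78 and CPT2 at -0.65, so the shuttle held members on both sides of 0.

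**Figure D4:**
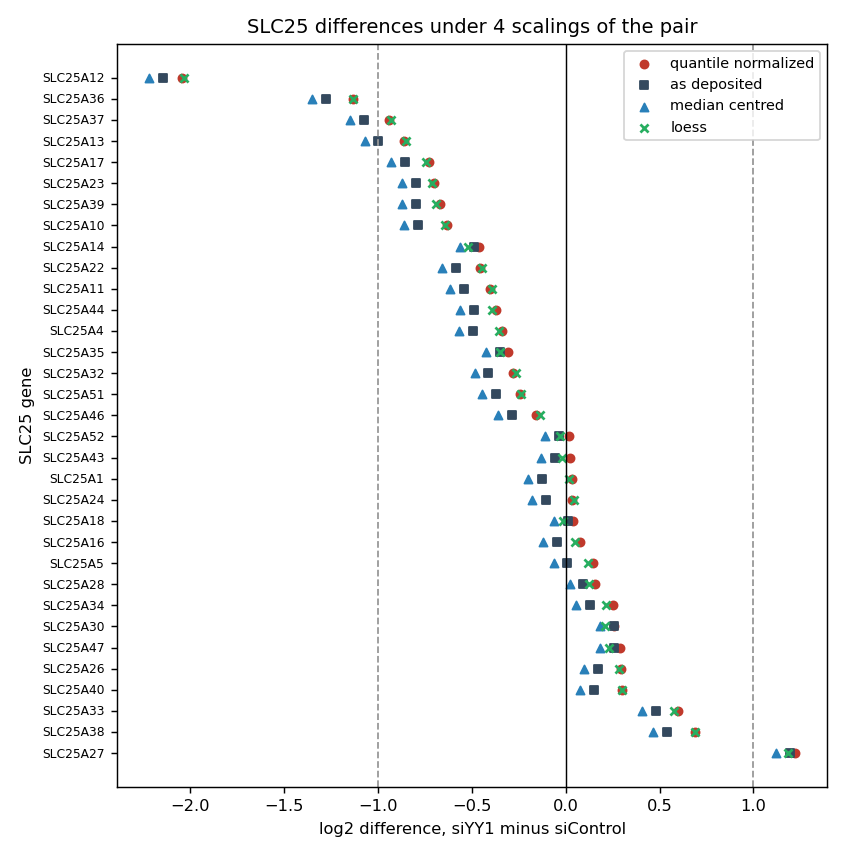
Difference in log2 units (x axis, siYY1 minus siControl) of the 33 SLC25 genes compared (y axis) under 4 scalings of the pair, 1 marker per scaling; dashed lines mark 2-fold. SLC25A12, SLC25A36 and SLC25A27 lie past 2-fold with every marker, and 7 genes near 0 have markers on both sides of it.

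Carriers are made in the cytosol and reach the inner membrane through the receptor TOM70, the small TIM chaperones of the intermembrane space and the TIM22 insertase. A list of 17 genes of this route had 16 members compared, of which 6 were lower and 1 was higher by 2-fold or more, beside 9.27% and 7.97% of all genes compared. The median was -0.32, with 9 of the 16 below 0 and 7 above, where 50.4% of all genes compared were below 0. Among the small chaperones TIMM8A was at 6.72 in siYY1 and 9.74 in siControl (-3.01), its siYY1 value being under the brightness minimum. TIMM10B was at 10.4 in siYY1 and 12.1 in siControl (-1.68), TIMM13 at 9.81 in siYY1 and 11.5 in siControl (-1.65), and TIMM9, which pairs with TIMM10, at 10.9 in siYY1 and 9.49 in siControl (1.38). The chaperones thus lay on both sides of 0. TOMM40, the pore of the outer membrane, was at -1.37, and AGK, a lipid kinase that is also a TIM22 subunit, at -1.28. The receptor TOMM20 was at -1.01, and inside 2-fold with loess (-0.99). TOMM5, a small subunit of the outer membrane complex, was inside 2-fold at -0.99, and past it as deposited (-1.15), with median centring (-1.23) and with loess (-1.01). The count of lower members was therefore 6 with loess and 7 in the deposited and the median-centred values. The insertase TIMM22 and the receptor TOMM70 were at 0.02 and 0.53, and TIMM10 and TIMM29 of the same list at 0.13 and 0.22. The signs of TIMM22 and TIMM10 changed with the scaling.

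**Figure D5:**
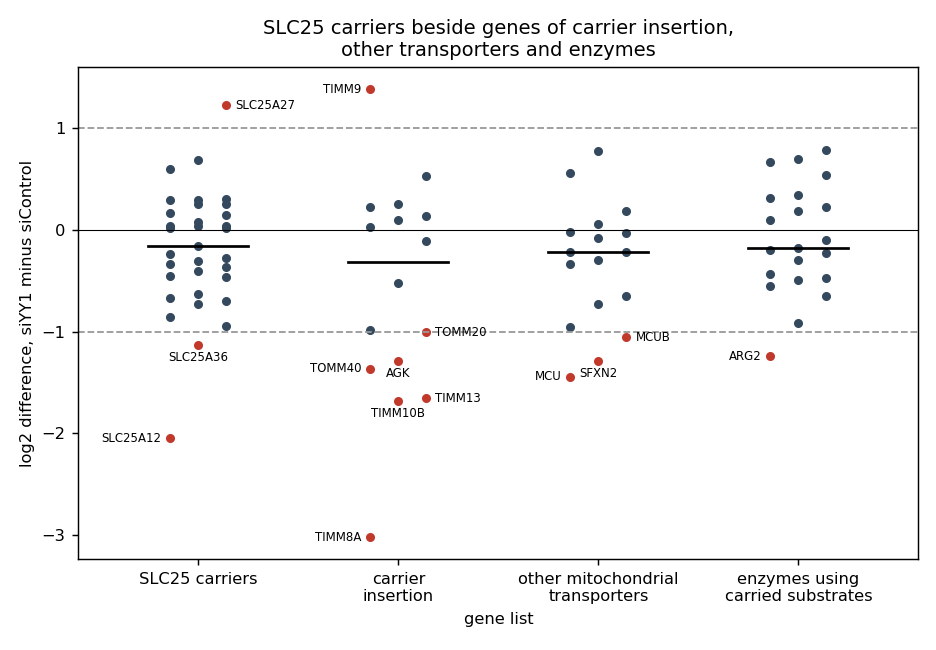
Difference in log2 units (y axis, siYY1 minus siControl) of the genes compared in the SLC25 family and in 3 other lists (x axis), 1 point per gene, with a bar at each median; red, labelled points are past 2-fold and dashed lines mark 2-fold. The SLC25 family has 3 labelled genes of 33 and the carrier insertion list 7 of 16.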

How the data were processed

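Total RNA of 2 DLD-1 cultures had been made into biotin-labelled sense cDNA and read on a GeneChip whole-transcript array (per the labels' protocols). Each probe set has 1 value per array as the authors deposited it, taken here as log2 expression because the values ran from 2.51 to 17.9. The software, the background correction and the normalization behind them are unknown here. The deposited medians were 6.93 for siYY1 and 6.86 for siControl, and the number of arrays limits the precision.

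The pair was quantile normalized over all 21448 probe sets. Platform annotation named 1 gene for 17709 of them, and biotypes came from the RefSeq table of GRCh38.p14. Genes with several probe sets, none a carrier, were averaged. Genes were counted at 2-fold, and no test was possible. Carriers reaching the brightness minimum were all named, with dim carriers as a range, and in the other lists at most 4 genes past 2-fold. TOMM40, AGK and TOMM20, beyond the limit of 4, and every list member named that is under 2-fold or too dim to compare, were chosen after their values were seen. The carriers and lists were chosen with earlier results of these data known. The computation was tested on simulated data with little noise, which checks the arithmetic only. Alternatives were the deposited values, median centring, loess on brightness, other brightness filters and other fold thresholds. Python 3.11.15, numpy 2.4.6, pandas 2.3.3, statsmodels 0.14.6 and matplotlib 3.10.9 were used.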

Additional observations from a re-analysis of the deposited data

How the results depend on the processing

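SLC25A12 and SLC25A36 were at least 2-fold lower and SLC25A27 at least 2-fold higher in each of the 4 scalings, and 26 of the 33 carriers compared kept their sign in all 4. The number at least 2-fold lower was 4 with median centring, 1 with a brightness filter at the 75th percentile, 8 at 1.5-fold and 1 at 3-fold. The number at least 2-fold higher was 0 with that filter, 3 at 1.5-fold and 0 at 3-fold. That filter left 14 carriers and 4312 genes, of which 8.58% were at least 2-fold lower and 8.35% higher. The median difference was -0.29 as deposited, -0.39 with median centring and -0.31 with the stricter filter, which left 14 carriers. Of these 9 were below 0, where 49.9% of all genes compared at that filter were. Without a filter 27 of all 44 carriers were below 0, where 50.3% of all genes were. Median centring moved the median of all genes compared to -0.21, and it left 61.5% of them below 0, against 50.4% with quantile normalization. Of all genes compared it called 14.2% lower and 5.04% higher at 2-fold, and the deposited values 12.2% lower and 6.15% higher. Scalings of the other lists were added after the data were seen. No paired analysis was possible because each group was 1 array. Each carrier had 1 probe set, so no second probe set checks its value.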

Other observations

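Other transporters of the mitochondrial membranes were read from a list of 21 genes, of which 17 were compared. At least 2-fold lower in siYY1 were 3 and higher were 0, beside 9.27% and 7.97% of all genes compared, and the median was -0.22. MCU, the pore of the calcium uniporter, was at 9.85 in siYY1 and 11.3 in siControl (-1.44). Its paralog MCUB, which dampens the uniporter, was at 11.4 in siYY1 and 12.5 in siControl (-1.06), and the small subunit SMDT1 was at 10.2 in siYY1 and 11.2 in siControl (-0.96). SMDT1 was past 2-fold as deposited (-1.09) and with median centring (-1.17), and in both the list had 4 lower. The regulator MICU2 was at -0.03. SFXN2, a sideroflexin, was at 9.65 in siYY1 and 10.9 in siControl (-1.29), and the porins VDAC1, VDAC2 and VDAC3 lay between -0.22 and 0.18.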
